A study of Mus musculus with 20 samples.

Results

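The step from 6 h to 24 h of actinonin was taken as the difference between the 4 samples titled for 24 h of treatment and the 4 titled for 6 h, which are 8 of the 20 samples of a time course. All cells were mouse embryonic fibroblasts (MEFs) of a Balb/c background, cultured with serum, a glutamine source and uridine and collected near confluence. Both groups received actinonin at 150 µM. The remaining samples had ethanol carrier at 3 µl/ml, labelled as 0 h, or actinonin for 48 h or 72 h, with 4 samples at each. Each sample pooled the RNA of 4 plates, and each group had 2 samples labelled with Cy3 and 2 with Cy5. No carrier sample was labelled with a later time than 0 h, so longer exposure to actinonin and longer time in culture cannot be told apart in this step. The cells carried no genetic change named in the labels. Whether they came from 1 or several isolations of embryos is not stated.

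Actinonin is a hydroxamate that blocks peptide deformylase, which takes off the formyl group that bacterial and mitochondrial proteins carry when their synthesis starts. Faults in mitochondrial translation are known to activate the integrated stress response, in which phosphorylation of the initiation factor eIF2 slows translation in general while favouring that of ATF4. ATF4 then drives genes of amino acid synthesis and transport, and also feedback regulators such as Trib3 and Ppp1r15a. The step addresses which transcripts moved after this early phase.

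Levels are normalised log2 intensities of one probe per gene, with the fitted terms for dye and slide removed. They can be compared between samples and not between genes. A gene is said to rise or fall where its adjusted p from the linear model (limma, Benjamini-Hochberg over all genes) was under 0.05. Between 51.3% and 58.7% of spots were well above background in the 8 samples, with median spot signals of 91 to 150, and the number of arrays limits the precision. Slide 1 held 2 of the 6 h samples, and slide 2 held the other 2 with all 4 samples of 24 h. A fit of slide 2 alone is therefore given beside the counts over all genes and where it changed the call of a named gene or moved a described count of a list by over 1.5 times. Smaller shifts of list counts on slide 2 are not repeated. All 10 fibroblast markers, among them Col1a1, Pdgfra and Thy1, were above background in all 8 samples. The leukocyte genes Ptprc, Cd53 and Tyrobp, the epithelial genes Epcam, Cdh1, Krt8 and Krt18, the endothelial genes Cdh5, Tek and Tie1 and the adipocyte genes Adipoq and Plin1 were above background in none. In bulk RNA, fewer cells of a kind and less RNA per cell cannot be told apart.

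Of 24250 genes and unnamed transcripts tested, 3986 rose (16.4%) and 3977 fell (16.4%) between 6 h and 24 h. Counts of list members given below stand beside these shares, and several lists were near them. Slide 2 alone gave 4091 rises (16.9%) and 4082 falls (16.8%). For scale, 6 h against carrier gave 3324 rises (13.7%) and 2699 falls (11.1%), and 24 h against carrier gave 5131 (21.2%) and 4635 (19.1%). These comparisons share samples with the step and are not independent of it. Most changes were small: the median size among called genes was 0.314 on the log2 scale, and 70 genes rose and 96 fell at least 2-fold. Named genes that changed at least 4-fold were 11 that rose and 5 that fell. The values of the groups did not overlap for 95.2% of called genes, against 39.6% of all genes tested, called ones included. The calls rest on the same values, so this separation is a description and no further support.

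**Figure D1:**
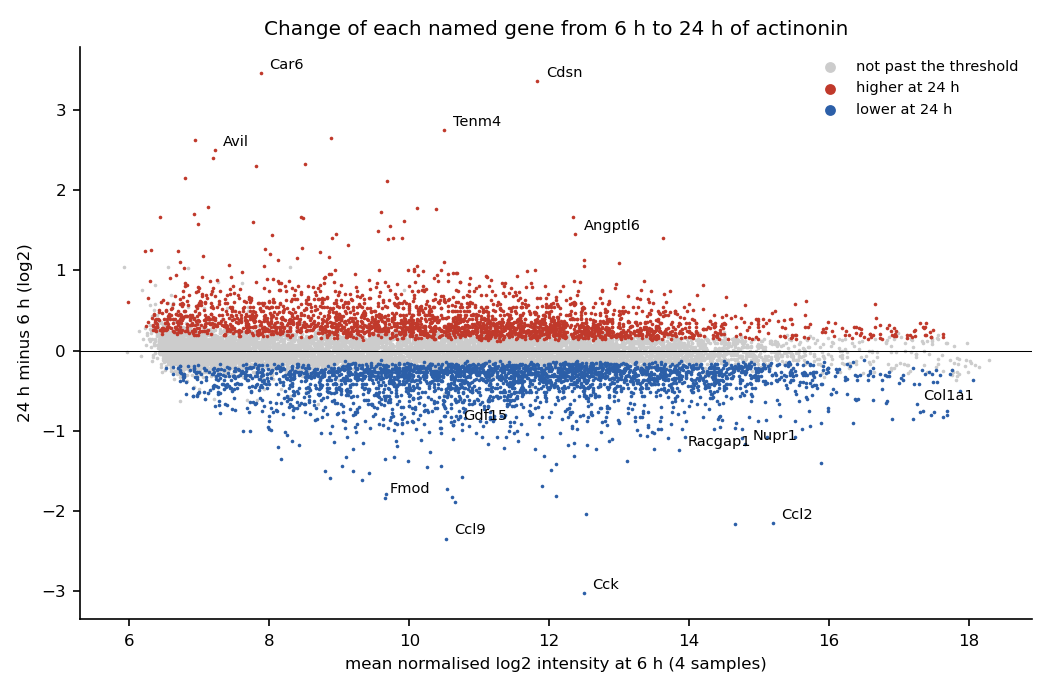
Change from 6 h to 24 h of actinonin (log2, vertical) of each named gene tested against its mean normalised log2 intensity at 6 h (horizontal). Red points rose and blue points fell at an adjusted p under 0.05; Car6 (3.46) and Cdsn (3.36) stand highest and Cck (-3.02) lowest, and most coloured points lie within 1 of the zero line.

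The largest rise was that of Car6, a secreted carbonic anhydrase. Its levels were 7.71, 7.72, 7.78 and 8.33 at 6 h and 11.16, 11.26, 11.35 and 11.67 at 24 h, an 11-fold increase (3.46 ± 0.16 log2, ± standard error, n = 4 per group, adjusted p = 4.6e-11). Cdsn, whose product corneodesmosin holds cornified cells of the skin together, measured 11.73, 11.75, 11.86 and 11.97 at 6 h and 15.07, 15.16, 15.21 and 15.28 at 24 h (3.36 ± 0.11, adjusted p = 1.94e-12). The groups were far apart for both genes, while 1 sample of Car6 at 6 h, at 8.33, stood above the other 3. Both genes had already risen from carrier to 6 h, by 0.97 and 1.20. Of the 5 epithelial and keratinocyte markers that could be tested, none rose, and 1, Krt7, passed as lower but was not well above background in any 24 h sample. Between 24 h and 48 h neither gene moved past the threshold (Car6 -0.09, Cdsn 0.09).

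Tenm4, a transmembrane teneurin, first fell slightly from carrier to 6 h (-0.28, adjusted p = 0.0162) and then rose. Its 6 h samples measured 10.42, 10.43, 10.48 and 10.66 and its 24 h samples 13.20, 13.22, 13.27 and 13.28 (2.75 ± 0.10, adjusted p = 2.85e-12). Avil, which encodes the actin-severing protein advillin, was at 7.10, 7.16, 7.25 and 7.35 and then at 9.55, 9.66, 9.74 and 9.87 (2.50 ± 0.08, adjusted p = 1.94e-12). Ecel1, an endothelin-converting-enzyme-like protease, rose by 2.63 ± 0.11 and Plin4, a lipid droplet coat protein, by 2.40 ± 0.09. Avil, Ecel1 and Plin4 did not pass the test between carrier and 6 h (0.01, 0.06 and -0.08), so their difference from carrier at 24 h (2.50, 2.69 and 2.32) was close to the step itself. The muscle-type cytochrome oxidase subunit gene Cox6a2 rose at both stages, by 0.71 and then by 2.11 ± 0.14. Slide 2 alone gave 1.89 for Cox6a2.

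Genes of glutathione conjugation and carbonyl reduction were also among the largest rises. Gsta4, a glutathione transferase with activity toward lipid aldehydes, measured 9.98, 10.09, 10.16 and 10.21 at 6 h and 11.83, 11.90, 11.90 and 11.95 at 24 h (1.78 ± 0.07, adjusted p = 4.56e-12). Gsta1 rose by 2.33 ± 0.09, Gsta2 by 2.30 ± 0.09 and the related Gm10639 by 2.65 ± 0.10. These 3 alpha-class genes are close copies, so their probes may share signal and count as less than 3 separate observations. Akr1b7, an aldo-keto reductase, rose by 2.15 ± 0.13, and Gstm1 by 0.74 ± 0.07 after a fall of 0.37 at 6 h (log2 change -0.37). In the list of 32 targets of the antioxidant factor NRF2 and of glutathione metabolism, 15 rose and 2 fell, with a median of 0.104 beside -0.0092 over all genes. At 6 h against carrier the same list had 8 rises, 9 falls and a median of -0.0233.

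Other large rises were those of Ifitm6 (1.79 ± 0.08), the sugar nucleotide pyrophosphorylase relative Uap1l1 (1.77 ± 0.10) and the lipid phosphatase-related Plppr3 (1.73 ± 0.07). Immp2l, a subunit of the mitochondrial inner membrane peptidase, was at 8.39, 8.44, 8.49 and 8.58 at 6 h and at 9.68, 9.72, 9.77 and 9.81 at 24 h (1.28 ± 0.06, adjusted p = 8.2e-11). It had not passed the test at 6 h against carrier (0.09). Secreted modulators also moved. The Wnt agonist Rspo3 rose by 1.39 ± 0.15 and the binding protein Igfbp4 by 1.60 ± 0.08, while the growth factor Igf1 itself fell from 9.16, 9.29, 9.30 and 9.56 to 7.67, 7.67, 7.72 and 7.83 (-1.61 ± 0.08, adjusted p = 1.22e-10). Pappa, a protease that cleaves Igfbp4, rose by 0.80 ± 0.09. Try5, Try4 and Nrip2 were not well above background in any 6 h sample and were so in all 4 at 24 h. They were at least 3.05-fold (Try5, adjusted p = 2.55e-09), 2.09-fold (Try4, adjusted p = 2.1e-07) and 2.06-fold (Nrip2, adjusted p = 6.65e-06) higher, where the bound compares the 24 h mean with the lowest signal that counted as above background. Try4 and Try5 are close copies of trypsin genes.

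The largest fall was that of Cck, the peptide hormone cholecystokinin, from 12.44, 12.45, 12.47 and 12.63 to 9.38, 9.40, 9.56 and 9.65 (-3.02 ± 0.10, adjusted p = 1.94e-12), an 8.11-fold decrease. A smaller fall had preceded it at 6 h (-0.51). Vip, another neuropeptide gene, fell at both stages, by -0.71 and then by -1.50 ± 0.11. The chemokine genes moved differently. Ccl2, which attracts monocytes, rose by 0.49 from carrier to 6 h, to 15.10, 15.16, 15.19 and 15.34, and then fell to 12.81, 13.02, 13.10 and 13.27 (-2.15 ± 0.10, adjusted p = 4.25e-11). Ccl7 likewise rose by 0.47 and then fell by 2.16 (log2 change -2.16 ± 0.11). Ccl9 did not pass the test at 6 h (0.08) and fell by 2.34 (log2 change -2.34 ± 0.10) in the step. At 24 h, Ccl2 and Ccl7 were below carrier, by -1.66 and -1.69.

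Inflammatory genes fell widely in the step. Of 26 cytokine and NF-kB target genes, 17 fell and 2 rose, with a median of -0.586, and the medians of the single 24 h samples relative to the 6 h mean were -0.568 to -0.528. At 6 h against carrier, 9 of the same 26 had risen and 2 had fallen. Relb, an NF-kB subunit and target, rose by 0.81 and then fell from 11.42, 11.58, 11.60 and 11.61 to 10.37, 10.43, 10.45 and 10.45 (-1.12 ± 0.06, adjusted p = 4.19e-10). The serpin genes Serpina3f (-2.04 ± 0.10) and Serpina3i (-1.79 ± 0.10), which are near copies of each other, fell after rises of 0.51 and 0.40. Il18rap, a receptor chain for interleukin 18, was well above background in all 6 h samples and in none at 24 h, at least 1.53-fold lower (adjusted p = 2.78e-06). The macrophage marker list moved in the same direction: of its 6 members that could be tested, 3 fell and none rose (Cd14 -0.76, Itgam -0.33, Lyz2 -0.19). Its median was -0.166. The median of every other marker list was negative too, and those of fibroblasts (-0.266) and adipocytes (-0.231) were lower. The macrophage list's median relative to the 6 h mean was -0.0549 to 0.0984 in single 6 h samples and -0.277 to -0.108 in 24 h samples. The pan-leukocyte gene Ptprc was above background in none of the 8 samples, and the part of this list in the result was not tested. Interferon-stimulated genes had 7 rises (Bst2 0.55, Psmb8 0.60) and 3 falls (Ddx58 -0.74, Rtp4 -0.73) among 24, beside 16.4% of all genes in each direction.

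**Figure D2:**
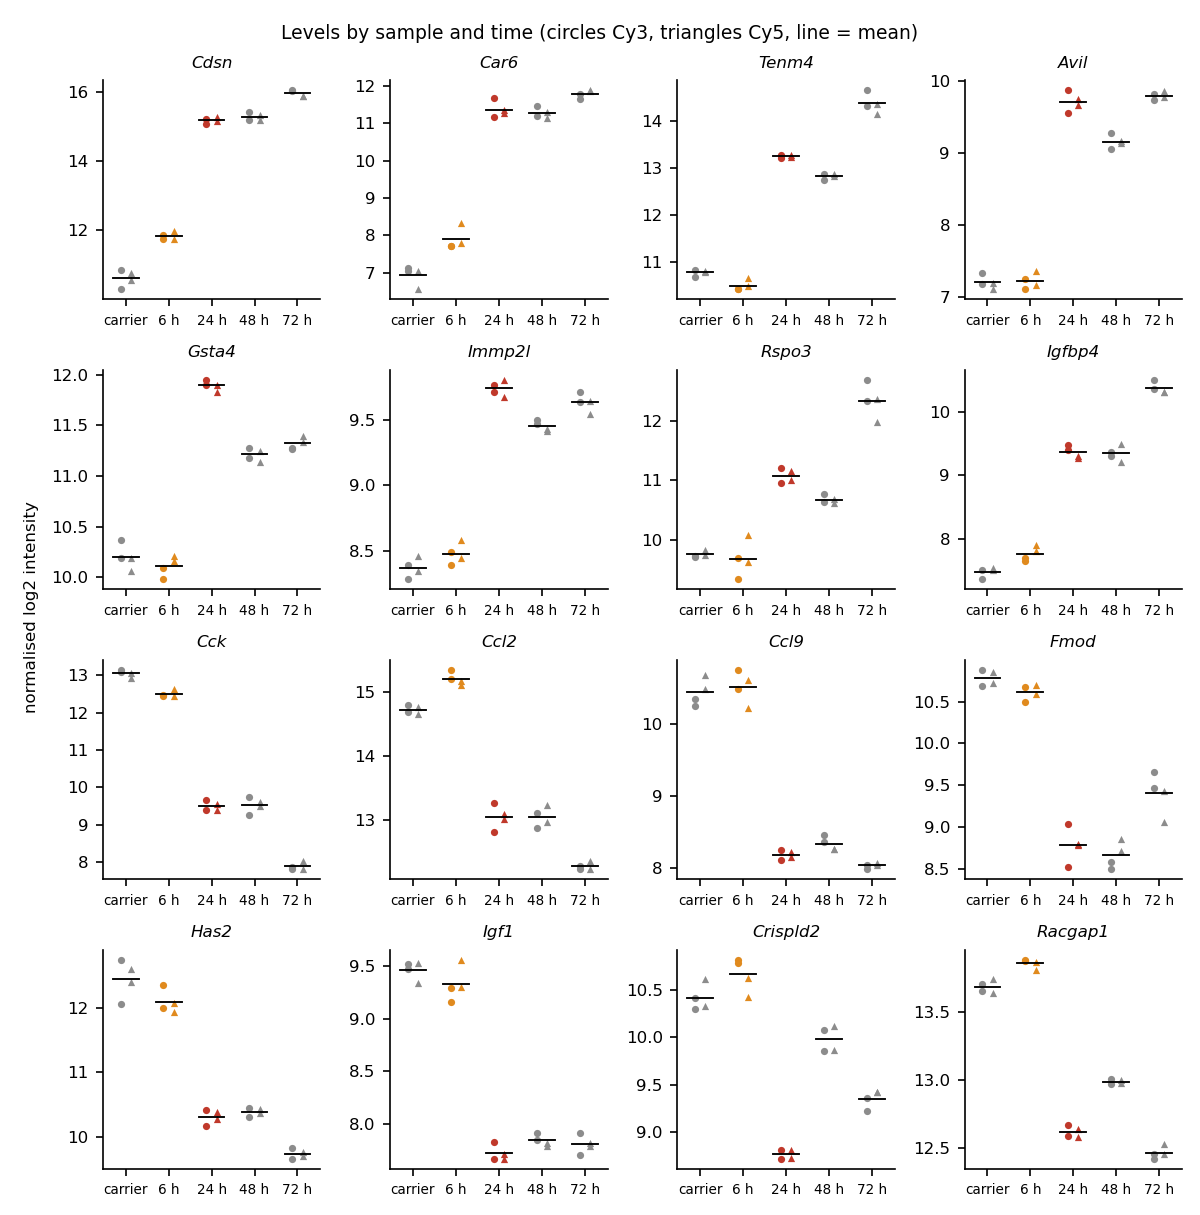
Normalised log2 intensity (vertical) of 16 genes in every sample at carrier, 6 h, 24 h, 48 h and 72 h (horizontal); circles are Cy3 samples, triangles Cy5 samples, and the line is the mean of 4. In each panel the 6 h (orange) and 24 h (red) samples do not overlap, which was a condition for naming most of these genes. Crispld2 was 1.22 higher again at 48 h while Cck was level (0.03).

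Genes of the extracellular matrix were among the falls. Fmod, the collagen-binding proteoglycan fibromodulin, fell from 10.50, 10.59, 10.67 and 10.70 to 8.52, 8.79, 8.80 and 9.04 (-1.82 ± 0.13, adjusted p = 7.43e-09). Has2, a hyaluronan synthase, fell from 11.94, 12.01, 12.08 and 12.36 to 10.16, 10.28, 10.38 and 10.41 (-1.81 ± 0.13, adjusted p = 9.63e-09). The basement membrane gene Nid2 fell by 0.91 (log2 change -0.91 ± 0.08), the elastic fibre gene Fbln5 by 0.61 (-0.61 ± 0.08) and Col1a1, the main chain of type I collagen, by 0.67 (-0.67 ± 0.09). Of 38 extracellular matrix genes, 23 fell and 1 rose, with a median of -0.362, and 10 had fallen by 6 h with a median of -0.168. Other large falls were in the secreted proteins Crispld2 (-1.89 ± 0.10) and Ccbe1 (-1.72 ± 0.17), the extracellular superoxide dismutase Sod3 (-1.57 ± 0.11), the organic anion transporter Slco4a1 (-1.84 ± 0.12) and Baalc (-1.58 ± 0.13). Rgs16, a brake on G-protein signalling, fell by 1.69 (log2 change -1.69 ± 0.23) with the widest 6 h spread of these genes, 11.49, 11.70, 11.84 and 12.51, and slide 2 alone gave -1.58. Among matrix proteases and their inhibitors 11 rose and 11 fell of 27, with Mmp11 (0.64 ± 0.06) and Adamts1 (0.78 ± 0.14) rising and Mmp9 (-1.22 ± 0.18), Timp1 (-0.81 ± 0.10) and Adam12 (-0.69 ± 0.07) falling. Mmp3 was above background in all 6 h samples and no 24 h sample, at least 1.44-fold lower (adjusted p = 0.000301). Lce1h, a gene of the cornified envelope with close copies, was at least 1.36-fold lower on the same measure (adjusted p = 0.000499).

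Of the 10 fibroblast markers 5 fell and none rose, with a median of -0.266, and slide 2 alone gave 5 falls and 1 rise. Named among them were Col1a1, Thy1 (-0.43), Col3a1 (-0.41) and Vim (-0.27). The call for Col3a1 was lost without the 6 h sample 2_Cy5 (-0.34, adjusted p = 0.058). Contractile genes and targets of the serum response factor had 12 falls and 1 rise of 23 (16 and 2 on slide 2 alone), with falls of Filip1l (-0.77), Smtn (-0.66) and Myh9 (-0.48). At 6 h, 2 of those 23 had fallen. Of 32 Wnt, TGF-beta and BMP signalling genes, 16 fell and 1 rose, Rspo3. The falls included the inhibitors Smad7 (-0.64 ± 0.07) and Skil (-0.82 ± 0.06), which limit TGF-beta signalling, and the TGF-beta binding protein Ltbp2 (-0.85 ± 0.08). Follistatin (Fst), which binds activins, fell by 0.82 (log2 change -0.82 ± 0.13).

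Of the lists tested, that of mitosis had the largest median fall. All 44 G2/M genes tested fell in the step, with log2 changes from -1.24 to -0.302 and a median of -0.837. The list's median in single 24 h samples lay between -0.838 and -0.798 relative to the 6 h mean, far from the -0.00428 to 0.0117 of the 6 h samples. At 6 h against carrier, 30 had fallen and 1 had risen, with a median of -0.186. Racgap1, a regulator of cytokinesis, rose slightly at 6 h (0.17) and then fell from 13.81, 13.87, 13.88 and 13.89 to 12.58, 12.59, 12.64 and 12.67 (-1.24 ± 0.05, adjusted p = 4.56e-12). Kif23, its motor partner at the spindle midzone, fell from 11.85, 11.89, 11.90 and 11.97 to 10.80, 10.82, 10.85 and 10.86 (-1.07 ± 0.05). The chromosomal passenger Birc5 fell by 1.07 (log2 change -1.07 ± 0.05), the centromeric histone Cenpa by 0.93 (-0.93 ± 0.04) and cyclin B1, Ccnb1, by 0.75 (-0.75 ± 0.07). Between 24 h and 48 h these 5 genes rose again by 0.26 to 0.47.

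Genes of the preceding phases of the cycle moved less. Of 41 genes of G1/S and DNA replication, 8 fell and 5 rose, beside 16.4% of all genes in each direction. Their median was -0.0234, and slide 2 alone gave 9 falls and 8 rises. Dbf4 (-0.53), Cdc45 (-0.46), Rfc5 (-0.35) and Rrm1 (-0.34) were among the falls. Of 19 cyclin-dependent kinase inhibitors and quiescence genes, 4 rose and 5 fell, and slide 2 alone gave 4 rises and 3 falls. Cdkn2a (0.37) and Gas1 (0.57) rose, while Cdkn2d (-0.58) and Klf9 (-0.29) fell. Cdkn1a, the p21 inhibitor, measured 13.97, 14.08, 14.10 and 14.25 at 6 h and 13.90, 13.93, 14.03 and 14.08 at 24 h, and the groups overlapped (-0.11 ± 0.09, adjusted p = 0.375). The p53 target list had 7 rises and 4 falls of 22, among them Trp53inp1 (0.72), Perp (0.71), Phlda3 (-0.46) and Aen (-0.37).

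Promoters of the G2/M list are shown because its members moved together and because such promoters are known for a CCAAT box and a CHR element. RefSeq windows on the build GRCm38.p6, from 250 bases before to 50 after a start site, were found for 37 of the 44 genes. CCAAT on either strand was present in 30 of their 39 windows, 76.9%, against 37.4% of all 32851 windows. The CHR letters TTTGAA or TTTAAA on either strand were in 34 of the 39, 87.2%, against 27.6% of all windows. These are matches of letters and were not tested. The stretch of 150 bases before the start site of Ccnb1 (chr13:100786487-100786636, minus strand) and of Cenpa (chr5:30666736-30666885, plus strand) follows, written 5′ to 3′ with CCAAT, its reverse ATTGG and the CHR letters in capitals.
Ccnb1: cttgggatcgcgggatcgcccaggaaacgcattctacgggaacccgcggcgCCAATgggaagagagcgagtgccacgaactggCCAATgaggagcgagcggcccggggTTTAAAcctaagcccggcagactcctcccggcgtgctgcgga
Cenpa: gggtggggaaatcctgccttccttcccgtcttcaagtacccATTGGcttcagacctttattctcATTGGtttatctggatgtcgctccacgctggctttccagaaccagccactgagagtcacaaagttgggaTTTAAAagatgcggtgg
Each of these stretches holds 3 matches, 2 of the CCAAT box and 1 of the CHR letters. The stretches of Kif23 and Racgap1, not printed, hold only 1 match each, of the CCAAT box. Their CHR letters lie outside those 150 bases.

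Regulators of the integrated stress response had risen by 6 h, and 12 of the 24 then fell in the step. At 6 h against carrier 22 of 24 rose, with a median of 1.01. In the step 12 fell and 2 rose, with a median of -0.224, and the list remained above carrier at 24 h with 20 rises, 1 fall and a median of 0.708. The falls were not even across the list. Nupr1, a stress-induced transcriptional regulator, went from 13.51 ± 0.11 (SD, n = 4) in carrier to 14.69, 14.70, 14.84 and 14.92 at 6 h and 13.51, 13.62, 13.63 and 13.71 at 24 h (step -1.16 ± 0.07, adjusted p = 2.94e-09), and did not differ from carrier at 24 h past the threshold (0.09, adjusted p = 0.346). Gdf15, a secreted stress cytokine, fell from 11.48, 11.51, 11.69 and 11.71 to 10.55, 10.69, 10.72 and 10.76 (-0.91 ± 0.10, adjusted p = 1.66e-06) after a rise of 1.27. Slc30a1, a zinc exporter, fell by 0.90 (log2 change -0.90 ± 0.09).

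Other stress genes with large first rises did not pass the test in the step. Gadd45a, a growth arrest gene, had risen by 2.50 at 6 h, and its 6 h samples, 12.43, 12.43, 12.64 and 12.67, overlapped those of 24 h, 12.48, 12.54, 12.64 and 12.83 (0.10 ± 0.09, adjusted p = 0.487). Ddit3, which encodes CHOP, measured 12.34, 12.48, 12.63 and 12.72 and then 12.65, 12.67, 12.80 and 12.85 (0.21 ± 0.10, adjusted p = 0.111). Without the 6 h sample 1_Cy3 the rise of Ddit3 passed the threshold (0.34, adjusted p = 0.0237), while slide 2 alone gave 0.06 (adjusted p = 0.532). Ppp1r15a, the feedback phosphatase subunit for eIF2, was at 13.23, 13.57, 13.59 and 13.61 and then at 13.39, 13.47, 13.59 and 13.63 (0.03 ± 0.10, adjusted p = 0.837). A p that misses the threshold does not show that the levels of these 3 genes were equal.

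Other members of the list moved by intermediate amounts. Atf4 fell from 17.45, 17.45, 17.55 and 17.72 to 17.13, 17.13, 17.16 and 17.29 (-0.39 ± 0.10, adjusted p = 0.00772) after a rise of 1.05, and its relative Atf3 fell by 0.64 (log2 change -0.64 ± 0.10) after a rise of 2.02. Chac1, which degrades glutathione, fell from 15.04, 15.31, 15.34 and 15.34 to 14.85, 14.88, 14.89 and 14.90 (-0.38 ± 0.08, adjusted p = 0.00185). The pseudokinase gene Trib3 was at 15.72, 15.79, 15.96 and 16.21 and then at 15.54, 15.57, 15.58 and 15.62, without overlap, but did not pass the test (-0.33 ± 0.15, adjusted p = 0.0922). On slide 2 alone Trib3 fell by 0.54 (log2 change -0.54, adjusted p = 4.64e-05), and it passed without the 6 h sample 2_Cy3 (-0.40, adjusted p = 0.0412). Fgf21, a secreted metabolic hormone, fell by 0.50 (log2 change -0.50 ± 0.16, adjusted p = 0.0196), but not past the threshold without the 6 h sample 1_Cy3 (-0.39, adjusted p = 0.13) or 2_Cy5 (-0.31, adjusted p = 0.186). Atf5, a factor tied to the mitochondrial stress response, rose from 15.86, 15.92, 16.01 and 16.05 to 16.19, 16.22, 16.23 and 16.29 (0.28 ± 0.06, adjusted p = 0.00269), and was 0.79 above carrier at 24 h. Without the slide term its change was 0. Klhl24 (0.69 ± 0.08) was the other rise in the list.

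**Figure D3:**
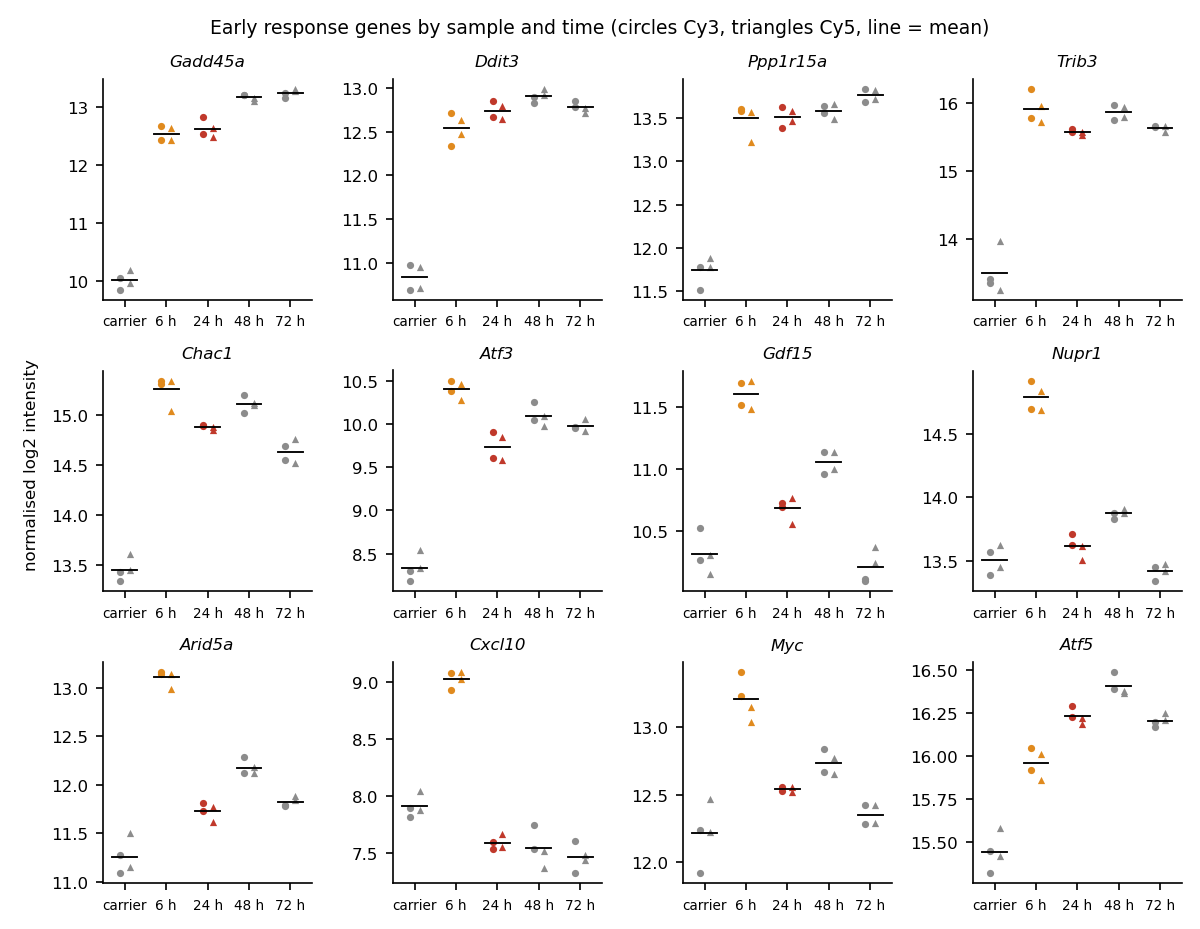
Normalised log2 intensity (vertical) of 12 genes of the early response in every sample at carrier, 6 h, 24 h, 48 h and 72 h (horizontal); circles are Cy3 samples, triangles Cy5 samples, and the line is the mean of 4. Gadd45a, Ddit3 and Ppp1r15a overlap between 6 h and 24 h, while Nupr1, Gdf15, Arid5a, Cxcl10 and Myc are lower at 24 h in all 4 samples.

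Amino acid genes moved in both directions in the step, where 16.4% of all genes were called each way. Of 22 genes of amino acid and one-carbon synthesis, 5 fell and 3 rose, near that share. Their median was -0.108, against 0.42 from carrier to 6 h, and slide 2 alone gave 12 falls and 3 rises. The phosphoserine phosphatase gene Psph fell from 13.94, 14.06, 14.16 and 14.32 to 13.62, 13.62, 13.66 and 13.78 (-0.44 ± 0.10, adjusted p = 0.00272), and the mitochondrial folate enzyme Mthfd2 fell by 0.39 (log2 change -0.39 ± 0.09). Aldh1l2, another mitochondrial folate enzyme, rose from 12.93, 13.19, 13.30 and 13.34 to 13.67, 13.70, 13.72 and 13.79 (0.54 ± 0.10, adjusted p = 0.000473) and stood 1.24 above carrier. Asparagine synthetase, Asns, was at 15.94, 16.16, 16.21 and 16.27 and then at 15.77, 15.85, 15.95 and 15.99 (-0.26 ± 0.10, adjusted p = 0.0529). It passed on slide 2 alone (-0.36, adjusted p = 0.00421), and without the 6 h sample 1_Cy5 (-0.31, adjusted p = 0.0164) or the 24 h sample 1_Cy5 (-0.30, adjusted p = 0.0446). Among 19 amino acid transporters 7 fell and 2 rose, with falls of Slc1a3 (-0.66), Slc38a4 (-0.62) and Slc6a6 (-0.49) and a rise of the cationic transporter Slc7a3 (0.49). The cystine transporter gene Slc7a11 fell by 0.35 (log2 change -0.35 ± 0.10, adjusted p = 0.0122), a call lost without the 6 h sample 1_Cy3 (-0.31, adjusted p = 0.0703) or 2_Cy5 (-0.26, adjusted p = 0.101). Of 20 cytosolic aminoacyl-tRNA synthetases 6 fell, among them Tars (-0.54), Cars (-0.41) and Mars1 (-0.30), and 2 rose, among them Eprs (0.34). Slide 2 alone gave 12 falls for that list.

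The composite ATF4 element, TGATGNAA on either strand, was searched in the same kind of window because many genes of the stress response are known targets of ATF4. It was present in 9 of 29 windows of the stress response regulators, 31%, in 2 of 18 windows of the synthesis genes, 11.1%, and in 2 of 19 of the transporters, 10.5%, against 3.97% of all windows. The 150 bases before the start of Nupr1 (chr7:126625471-126625620, minus strand), Atf3 (chr1:191183334-191183483, minus strand), Asns (chr6:7693210-7693359, minus strand) and Slc7a11 (chr3:50443614-50443763, minus strand) are given with the element or its reverse, TTNCATCA, in capitals.
Nupr1: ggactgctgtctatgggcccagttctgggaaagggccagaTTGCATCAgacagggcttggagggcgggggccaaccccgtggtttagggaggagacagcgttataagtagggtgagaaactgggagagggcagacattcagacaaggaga
Atf3: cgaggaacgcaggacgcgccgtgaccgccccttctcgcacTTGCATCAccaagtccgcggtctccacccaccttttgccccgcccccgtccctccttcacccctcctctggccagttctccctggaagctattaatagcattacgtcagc
Asns: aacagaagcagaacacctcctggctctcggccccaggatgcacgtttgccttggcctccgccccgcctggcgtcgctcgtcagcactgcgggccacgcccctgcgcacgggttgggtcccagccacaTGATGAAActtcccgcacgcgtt
Slc7a11: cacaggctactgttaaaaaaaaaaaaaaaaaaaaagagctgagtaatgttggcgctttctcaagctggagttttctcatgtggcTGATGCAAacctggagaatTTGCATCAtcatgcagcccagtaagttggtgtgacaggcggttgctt
Nupr1, whose level at 24 h did not differ from carrier past the threshold, and Slc7a11, which was still 1.24 above carrier, both hold the element.

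Early genes were also followed without sharing samples between choice and outcome. The 100 named genes with the largest rise at 6 h on slide 1, by 0.733 to 2.30, were read on the slide 2 arrays for the step. There 77 were lower and 23 higher at 24 h than at 6 h, with 64 falls and 12 rises past the threshold and a median of -0.332, beside -0.0186 over all named genes. The 100 largest falls at 6 h, by 0.489 to 1.21 in size, had 58 higher and 42 lower at 24 h, with 39 rises and 27 falls called and a median of 0.0838. The genes named next were ranked by their slide 2 change, and their values, from the fit over all samples, are a description. The early rises that fell most in the step were Cxcl10, an interferon-inducible chemokine (8.93, 9.03, 9.08 and 9.09 to 7.54, 7.56, 7.60 and 7.67; -1.44 ± 0.09), Arid5a, which stabilises cytokine mRNAs (-1.37 ± 0.08), Rnd1 (-1.22 ± 0.15), Nupr1 and Prag1 (-1.12 ± 0.11). Early rises that went on rising were Car6, Cdsn, the adhesion receptor gene Cxadr (1.65 ± 0.09), Gdap1l1 (1.55 ± 0.09) and Angptl6 (1.45 ± 0.10).

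Among the early falls, Cirbp, a cold-inducible RNA-binding protein, rose from 11.48, 11.62, 11.73 and 11.89 to 12.59, 12.63, 12.67 and 12.71 (0.99 ± 0.10), and passed its carrier mean of 12.07. Ppp1r3c, a glycogen-targeting phosphatase subunit (0.85 ± 0.13), Adamts1, Pnrc1 (0.76 ± 0.10) and Zfp467 (0.73 ± 0.10) also rose. Early falls that went on falling were Vip, Lce1g (-1.01 ± 0.14), the MAX partner Mxd3 (-0.90 ± 0.06), the endoplasmic reticulum chaperone Calr (-0.82 ± 0.12) and Fst. Hexim1, an inhibitor of transcription elongation, and the heat shock gene Hspa1a had fallen by 0.98 and 1.02 in size at 6 h (-0.98 and -1.02). They rose by 0.56 ± 0.06 and 0.58 ± 0.10 in the step, and the near copy of Hspa1a, Hspa1b, may share its signal. Myc rose by 1.00 at 6 h, to 13.04, 13.15, 13.23 and 13.41, and fell to 12.52, 12.53, 12.56 and 12.56 (-0.67 ± 0.10, adjusted p = 3.73e-05). Txnip, which binds thioredoxin, stayed below carrier with no step past the threshold (-0.12 ± 0.12, adjusted p = 0.522).

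**Figure D4:**
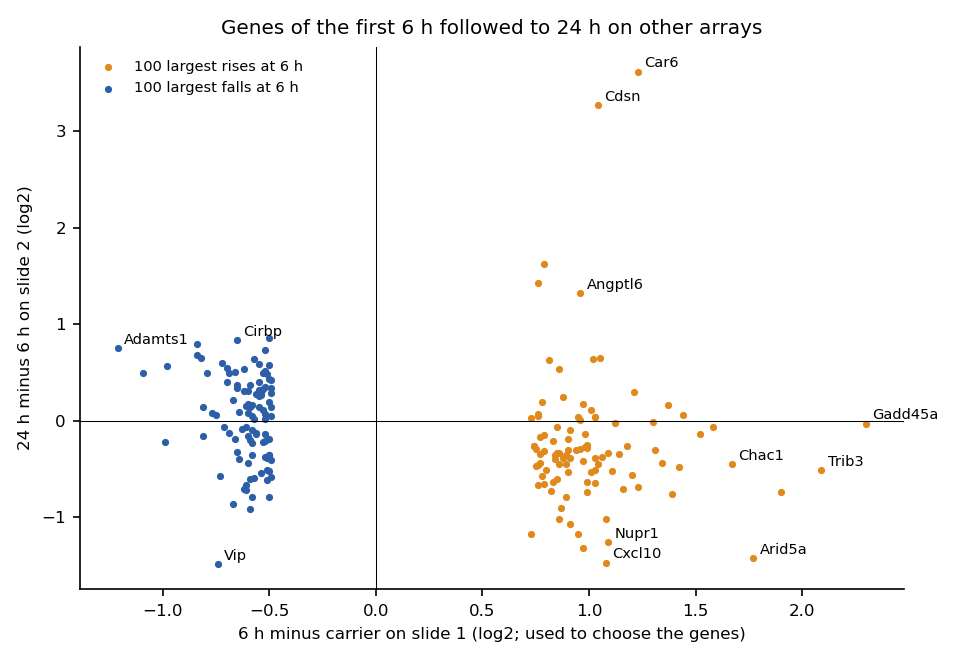
Change from 6 h to 24 h on slide 2 (log2, vertical) against the change from carrier to 6 h on slide 1 (log2, horizontal), which chose the genes, for the 100 largest rises (orange) and 100 largest falls (blue). Of the orange points 77 lie below zero, and Car6 and Cdsn lie far above the rest.

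Ribosome genes moved in opposite directions. Of 40 ribosome biogenesis genes 32 had risen at 6 h, and in the step 23 fell and 1 rose, with medians of 0.325 and -0.232. The nucleolar helicase gene Ddx21 fell from 12.48, 12.60, 12.61 and 12.72 to 11.79, 11.81, 11.84 and 11.89 (-0.77 ± 0.09, adjusted p = 6.12e-06), and Rrp1b (-0.64), Wdr43 (-0.56) and Bysl (-0.52) fell as well. Cytosolic ribosomal protein genes had 54 rises and no fall of 78 in the step, with a small median of 0.19, against 2 rises at 6 h. Rpl36a (0.40 ± 0.06) and Rpl28 (0.33 ± 0.05) were examples. Proteasome genes had 20 falls and no rise of 31, with a median of -0.18 and falls of Psmd12 (-0.46), Psmd3 (-0.39) and Psmd1 (-0.33). Cytosolic heat shock genes had 10 falls and 2 rises of 23, with falls of Hspa4l (-0.46), Hspa4 (-0.40) and the HSP90 cofactor gene Ahsa1 (-0.28). The fall of Hspa4 turned to 0.18 when a gene's probes were averaged.

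Lysosomal genes rose as a list: 23 of 37 rose and 2 fell, with a median of 0.336, after a median of 0.00225 at 6 h. The peptidase gene Tpp1 went from 10.65, 10.71, 10.73 and 10.82 to 11.51, 11.58, 11.59 and 11.62 (0.85 ± 0.06, adjusted p = 1.26e-08), and Neu1 (0.79 ± 0.07) and Ctsl (0.67 ± 0.07) rose too. Of 30 autophagy genes 16 rose and 3 fell, with a median of 0.218. Pink1, the kinase that marks damaged mitochondria, rose from 9.85, 10.08, 10.11 and 10.29 to 10.88, 10.92, 10.94 and 10.97 (0.85 ± 0.09, adjusted p = 6.07e-07). The mitophagy receptor genes Bnip3 (0.79 ± 0.08) and Bnip3l (0.50 ± 0.06) and the autophagosome gene Map1lc3b (0.60 ± 0.06) rose in the step, and Bnip3 had fallen by 0.42 in size at 6 h (-0.42).

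**Figure D5:**
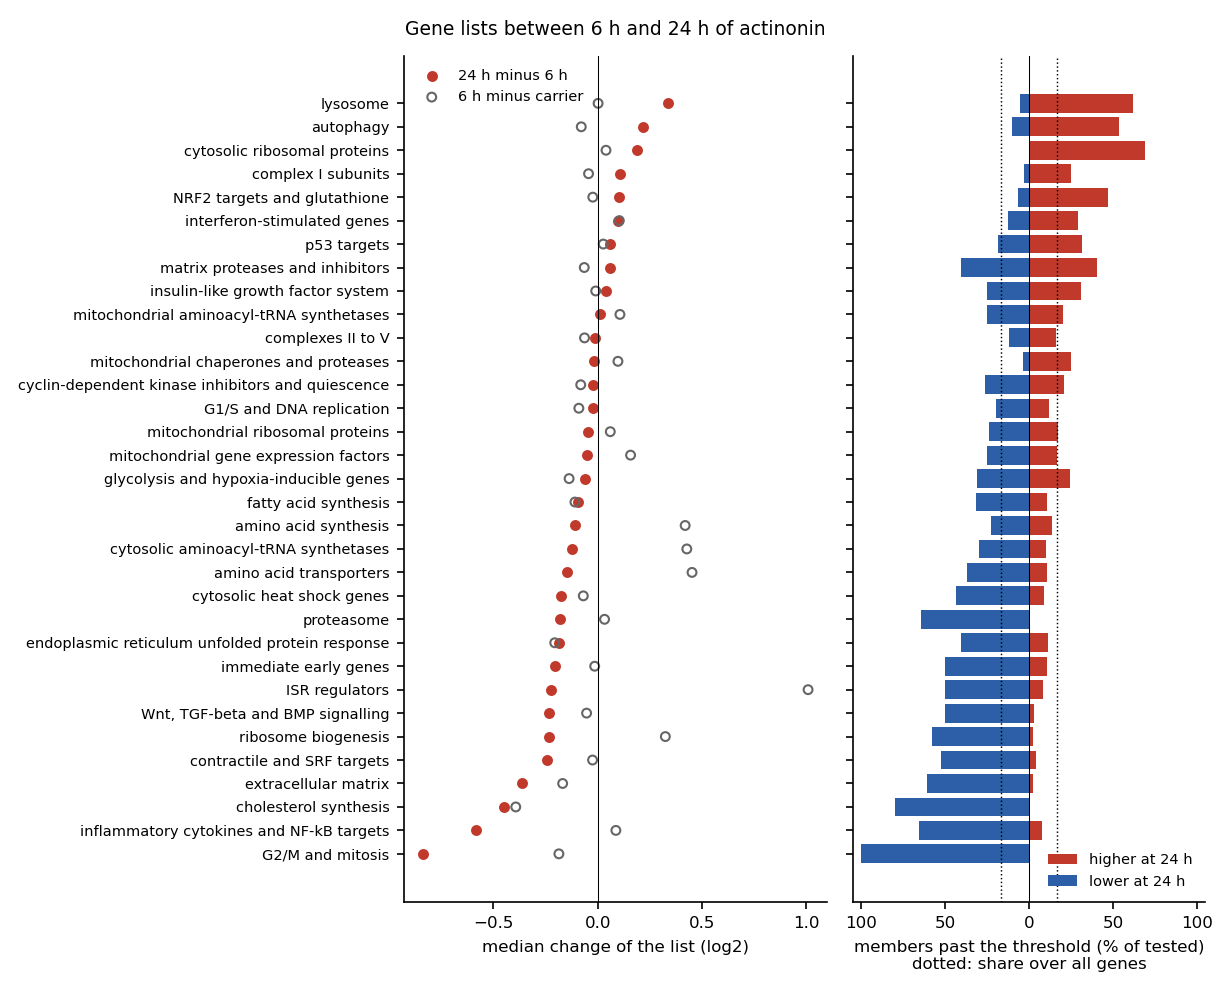
Left, median log2 change of each gene list from 6 h to 24 h (red) and from carrier to 6 h (open circles; the comparisons share the 6 h samples). Right, share of each list's tested members that rose (red) or fell (blue) in the step, with dotted lines at the 16.4% of all genes in each direction; mitosis genes reach 44 of 44 falls and cytosolic ribosomal proteins 54 of 78 rises.

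Cholesterol synthesis genes fell at both stages. Of 25, 23 had fallen at 6 h and 20 fell in the step, with medians of -0.393 and -0.451, and none rose. Pmvk, which encodes phosphomevalonate kinase, fell from 13.34, 13.38, 13.39 and 13.53 to 12.39, 12.44, 12.48 and 12.55 (-0.95 ± 0.07, adjusted p = 7.43e-09). The cyclase gene Lss (-0.92 ± 0.07) and the prenyl synthase gene Fdps (-0.88 ± 0.06) fell as well. Hmgcs1, the pathway's synthase, was scattered at 6 h, at 13.84, 14.07, 14.26 and 14.72, and overlapped the 24 h samples at 13.85, 13.86, 13.96 and 14.08 (-0.28 ± 0.18, adjusted p = 0.267). The sterol element TCACNCCAC was in 1 of 20 windows of the list, 5%, against 1.24% of all windows. That window is Hmgcs1's (chr13:119690201-119690350, plus strand, 150 bases before the start, element in capitals).
Hmgcs1: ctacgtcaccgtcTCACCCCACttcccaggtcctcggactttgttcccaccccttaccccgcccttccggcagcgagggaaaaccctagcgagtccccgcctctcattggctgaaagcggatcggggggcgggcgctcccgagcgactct
The NRF2 letters TGACNNNGC were in 9 of 34 windows of the NRF2 and glutathione list, 26.5%, against 12.4% of all. The rises named above from that list, Gsta1, Gsta2, Gsta4 and Gstm1, were not among the genes with these letters. Windows were found for 26 of its 32 genes. Fatty acid synthesis had 6 falls and 2 rises of 19, with falls of Acsl3 (-0.49), Elovl6 (-0.47), Scd1 (-0.41) and Elovl1 (-0.34). Genes of the unfolded protein response of the endoplasmic reticulum had 11 falls and 3 rises of 27, among them Hsp90b1 (-0.75), Pdia3 (-0.70), Selenos (-0.63) and Creld2 (-0.46), after 17 falls at 6 h.

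Mitochondrial lists changed little as wholes. Of 36 complex I subunit genes 9 rose and 1 fell, with a median of 0.107 and rises of Ndufa6 (0.46 ± 0.06) and Ndufa7 (0.37 ± 0.07). Among 43 genes of complexes II to V there were 7 rises and 5 falls, with a median of -0.0107 that turned to 0.0391 with no scaling between arrays, 0.0342 with quantile scaling and 0.0365 in the authors' series matrix. Of 76 mitochondrial ribosomal protein genes 13 rose and 18 fell, with Mrpl23 rising by 0.76 ± 0.06 and Mrps6 falling by 0.43 (log2 change -0.43 ± 0.06). Chaperones and proteases had 7 rises and 1 fall of 28 (8 and 2 on slide 2 alone), among them the matrix protease Lonp1 (0.38 ± 0.07), the HSP70 gene Hspa9 (0.30 ± 0.07) and Trap1 (0.33 ± 0.06), beside Immp2l. Mitochondrial aminoacyl-tRNA synthetases had 4 rises and 5 falls of 20. Among 36 mitochondrial gene expression factors 6 rose and 9 fell. Metap1d, the mitochondrial methionine aminopeptidase that acts after deformylation, rose from 10.04, 10.08, 10.16 and 10.17 to 10.40, 10.50, 10.54 and 10.54 (0.39 ± 0.07, adjusted p = 0.000213). Pdf, the deformylase itself and the target of actinonin, fell from 11.08, 11.17, 11.24 and 11.34 to 10.90, 11.02, 11.02 and 11.07 (-0.21 ± 0.06, adjusted p = 0.0148) after a rise of 0.20. The call for Pdf was lost without the 6 h sample 1_Cy3 (-0.18, adjusted p = 0.0827) or the 24 h sample 2_Cy5 (-0.17, adjusted p = 0.0514).

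Among 28 immediate early genes 14 fell and 3 rose, with falls of Klf10 (-0.88 ± 0.08), Egr2 (-0.85 ± 0.10) and Junb (-0.65 ± 0.08). Glycolytic and hypoxia-inducible genes had 7 rises and 9 falls of 29, and the 4 members with the smallest p rose: Car9 (0.68), Ndrg1 (0.58), Kdm3a (0.56) and Pdk1 (0.53). In the insulin-like growth factor system 5 rose and 4 fell of 16, beside 16.4% of all genes in each direction. Among the falls was the RNA-binding protein gene Igf2bp1 (-0.89 ± 0.07). Marker lists of other tissues had few members that could be tested. In the adipocyte, neuronal and glial, and skeletal muscle lists the share that fell was above the 16.4% of all genes. On lists this small that share is a description. Of 4 adipocyte genes tested, 2 fell, Fabp4 (-0.74) and Pparg (-0.40). Of 7 neuronal and glial genes 3 fell, Tubb3 (-0.66), Mbp (-0.35) and Snap25 (-0.32), and of 4 skeletal muscle genes 1 fell, the actin gene Acta1 (-0.22). No member of these 3 lists rose. Acta1 and Lyz2 lost their calls when any of several single samples was left out (Acta1 -0.20 to -0.18, Lyz2 -0.20 to -0.15), and Lyz2 did so on slide 2 alone (-0.21, adjusted p = 0.0512). The endothelial gene Vwf passed as higher but overlapped between the groups, was not well above background in any 6 h sample and did not pass on slide 2 alone (adjusted p = 0.11).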

How the data were processed

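Per the labels, total RNA of each sample was amplified, labelled with Cy3 or Cy5 and hybridised in pairs, 1 sample per channel. Each 24 h sample shared its array with a 72 h sample, and each 6 h sample with a carrier or 48 h sample. No array held both 6 h and 24 h, so the step is a comparison between arrays. The samples are labelled as independent, with nothing on how cultures were started, so the spread behind each p-value is that of these samples and may be technical. Slide 1 was read with Feature Extraction 10.7.3.1 and slide 2 with 11.0.1.1, per the file headers, so slide, scan and software cannot be told apart. Deposited intensity values are median spot and background signals, not normalized, and the deposited marks flag spots well above background, saturated or outlying. The series matrix deposited by the authors is in log2 intensity, with column medians of 6.90 to 6.91; it correlated with its own channel at 0.9986 or more and served as an alternative. R 2.15 and limma are named in the submitters' processing notes.

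In R 4.3.3 with limma 3.58.1, signals were corrected by normexp (offset 50), normalized by loess within and Aquantile between arrays, and averaged per probe. Kept probes were well above background in 4 or more of the 20 samples, and the brightest stood for its gene (RefSeq names, GRCm38.p6; 26582 of 55681 probes named, 29099 unnamed). Of 1915 other probes of called genes, 86.3% changed in the same direction as the chosen probe, and the rest did not. Groups, dye and slide were fitted over all 20 samples taking the array as random (correlation 0.25), and tests were two-sided. Printed sample values have dye and slide terms removed. Such scaling cannot show a change common to all genes. The fit was also run on data simulated from its own estimates, with far fewer planted changes than the step had calls. That run cannot show how slide or array affected the real samples.

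The samples, gene lists and tests were chosen with earlier results of these data known. Named genes were the 15 largest rises and 15 largest falls that were called, above background and without overlap, at most 3 genes with a bound each way, the 4 called members of each list with the smallest adjusted p, a fixed list of stress genes, and the 5 largest further rises and falls among early genes. Promoters are RefSeq sequences. Some genes that this rule names are not reported here.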

Additional observations from a re-analysis of the deposited data

Results flagged for a closer look

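For 207 named genes, each group of 4 was searched for a sample whose gap to the other 3 exceeded Dixon's critical share of the range. Of 414 groups 19 were found, 14 at 6 h and 5 at 24 h, where chance gives about 1 in 20. At 6 h, the Cy5 sample 1 stood apart in 10 genes. It was high for Acsl3 (10.21 against 9.94 to 9.97), Car6 (8.33 against 7.71 to 7.78), Cck (12.63 against 12.44 to 12.47), Gas1 (11.12 against 10.86 to 10.90) and Mxd3 (9.89 against 9.75 to 9.77). It was low for Arid5a (12.99 against 13.14 to 13.16), Chac1 (15.04 against 15.31 to 15.34), Mrps30 (13.12 against 13.22 to 13.23), Ppp1r15a (13.23 against 13.57 to 13.61) and Relb (11.42 against 11.58 to 11.61). This sample lay on slide 1, and the calls of these 10 genes were the same without it. The Cy3 sample 2 of 6 h, also on slide 1, was high for Cd14 (9.37) and Krt7 (7.20) and low for Ndufa7 (14.86) and Perp (7.04). At 24 h, the Cy3 sample 2 was high for Gm10639 (11.66) and Krt7 (6.54, in a group where it was not well above background), the Cy5 sample 2 was high for Hsp90b1 (15.33), the Cy3 sample 1 was low for Lonp1 (15.63) and the Cy5 sample 1 was low for Rrp1b (9.97).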

How the results depend on the processing

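Most settings tried changed 1 choice. Agilent's processed signals came with scaling to the 75th percentile, the series matrix replaced all preprocessing, and the fits of 8 samples or of 1 dye had no array block. The genes differing in the step numbered 7963 in all, and 4436 with no scaling between arrays (2364 higher, 2072 lower), 5275 without the slide term (2545 lower), 5042 with the Cy3 samples alone (2586 higher, 2456 lower) and 2853 with the Cy5 samples alone (1406 higher, 1447 lower); the single-dye fits hold fewer samples. Changes of at least 2-fold numbered 166 and rose to 522 with Agilent's processed signals scaled to the 75th percentile. The cause of the other shifts was not tested. Leaving out single samples gave 6457 to 8398 genes, 3224 to 4307 of them higher and 3233 to 4091 lower, and 157 to 175 at least 2-fold. The replicate numbers did not pair the samples: deviations of same-numbered samples correlated at -0.104 to 0.00013, and a replicate block gave 7653 genes (3747 higher, 3906 lower). Of 199 named genes that were called, 130 were called in the same direction under every setting tried. Without the slide term, Atf5 stood at 0 and the list medians turned for p53 targets (-0.0061), interferon-stimulated genes (-0.0488), mitochondrial chaperones and proteases (0.053), endothelial (0.0926) and neuronal and glial markers (0.0637). With Cy5 alone the p53 targets were at -0.053. Averaging a gene's probes put Hspa4 at 0.18 and mitochondrial gene expression factors at 0.00231. The median over all genes moved by less than 0.1 under each scaling tried. Near-zero medians of other lists also changed sign under some settings: mitochondrial synthetases (0.0114, otherwise -0.0171 to -0.00395), the insulin-like growth factor system (0.0424, with 8 samples -0.000329 and with Cy3 alone -0.0125) and cyclin-dependent kinase inhibitors (-0.02, otherwise 0.00608 to 0.0217).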
